A study of Mus musculus with 4 samples.

Results

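A set of 10 p53 target genes of growth arrest and feedback was followed through single intestinal epithelial cells of Bmi1-GFP mice, which carry a green fluorescent reporter of the Bmi1 locus. The 10 genes (Cdkn1a, Ccng1, Btg2, Plk2, Mdm2, Phlda3, Zmat3, Trp53inp1, Sesn1 and Sesn2) were taken by symbol, and all 10 were present among the 31054 features of each count matrix. RNA was counted in 4 droplet libraries, 1 per group: gut of embryos at day 12.5 (E12.5), of embryos at day 17.5 (E17.5), of adult mice and of adult mice that were irradiated. All 4 groups carried the Bmi1-GFP genotype, the cells were sorted by flow cytometry, and the series design describes the sorted cells as Bmi1-expressing. Radiation dose, time after irradiation, strain, sex, adult age, the number of animals and the sorting gate are not given in the sources used here. The irradiated and adult libraries answer how these genes differed after irradiation, and the embryonic libraries give their levels in developing gut. With 1 library per group no difference could be set against a spread between replicates, so no test between groups was made, and all intervals below cover counting error only.

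p53, the product of Trp53, is a transcription factor that is stabilised after DNA damage. Its targets include brakes on the cell cycle: Cdkn1a encodes p21, an inhibitor of cyclin-dependent kinases, Ccng1 encodes cyclin G1, Btg2 an antiproliferative protein that recruits mRNA deadenylases, and Plk2 a polo-like kinase. The others, called the feedback arm here, act on p53 or on pathways around it. Mdm2 is the ubiquitin ligase that marks p53 for degradation, Phlda3 restrains Akt at the membrane, Zmat3 is an RNA-binding protein, Trp53inp1 is a stress-induced partner of p53, and the sestrins Sesn1 and Sesn2 restrain growth signalling through mTOR. In the intestine, dividing crypt cells are known for their sensitivity to radiation, whereas enteroendocrine (hormone), tuft (chemosensory) and Paneth (antimicrobial) cells are differentiated and divide little.

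The start regions of 2 of these genes hold a sequence close to the consensus p53 response element and are printed to show it. That consensus is a pair of decamers, 20 bases in all, here allowed 1 mismatch with the C and G of each decamer kept. The promoter windows are RefSeq's, build GRCm38.p6, from 250 bases before to 50 bases after each start. They cover 8 of the 10 genes in 10 windows, Zmat3 and Trp53inp1 having no entry. Cdkn1a (ENSMUSG00000023067, chr17:29090976-29100727, + strand, GRCm38) has the element 51 to 32 bases before its upstream start, and the element's first base lies 2841 bases before its second listed start. Ccng1 (ENSMUSG00000020326, chr11:40748552-40755311, - strand) has it 195 to 176 bases before its start. Phlda3 (ENSMUSG00000041801, chr1:135766119-135769136, + strand), the one of the 10 genes with the highest irradiated-over-adult fold in the enteroendocrine-like cells, is shown beside them without a match. Each is printed 5′ to 3′ on the gene's strand, upstream of the annotated gene, with the matching element in capitals.
Cdkn1a: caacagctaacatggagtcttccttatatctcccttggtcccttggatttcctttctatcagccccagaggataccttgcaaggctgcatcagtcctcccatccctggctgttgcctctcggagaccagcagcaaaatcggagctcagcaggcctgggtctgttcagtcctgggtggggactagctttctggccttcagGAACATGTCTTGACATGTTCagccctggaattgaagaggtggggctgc
Ccng1: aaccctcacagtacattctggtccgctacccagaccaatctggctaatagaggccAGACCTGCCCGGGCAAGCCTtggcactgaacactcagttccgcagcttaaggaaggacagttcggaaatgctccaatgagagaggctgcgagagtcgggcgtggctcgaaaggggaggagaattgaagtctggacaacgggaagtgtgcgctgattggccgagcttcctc
Phlda3: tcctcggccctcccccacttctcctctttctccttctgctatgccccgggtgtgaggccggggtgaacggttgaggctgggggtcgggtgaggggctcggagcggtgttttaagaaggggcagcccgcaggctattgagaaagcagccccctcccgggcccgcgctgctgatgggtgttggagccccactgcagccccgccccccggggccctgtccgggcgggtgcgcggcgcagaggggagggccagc
These stretches are chr17:29090729-29090975, chr11:40755312-40755536 and chr1:135765835-135766084. The element occurred in 22 of all 32851 windows (0.067%). The consensus is its own reverse complement, so both strands were searched. A match is a description of the letters and shows no binding.

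Across the libraries, 50.6% to 84.3% of deposited barcodes passed the cell filter (at least 500 genes and at most 20% mitochondrial unique molecular identifiers, UMIs) and the removal of putative doublets. This left 3597 adult and 3031 irradiated cells, with 29808886 and 38753466 UMIs. Median depth per cell was 3607 UMIs in the adult and 8554 in the irradiated library, and 18081.5 and 11003 at E12.5 and E17.5. Between 6 and 12 barcodes were shared by any 2 libraries. Cells were clustered without the 10 genes and without 2 lists of p53 genes, and clusters were named from marker genes, so that "enteroendocrine-like" means a cluster that carries those markers. Enteroendocrine-like cells were 2220 adult and 1851 irradiated cells, and tuft-like cells 974 and 275. Paneth-like cells were 107 and 99, enterocyte-like cells 86 and 69, and crypt stem or progenitor-like cells 96 and 26. A further 513 irradiated cells, 717 E17.5 cells and no adult cells were left unnamed. Among them were 3 E17.5 clusters (209, 204 and 180 cells) led by the hormone genes Gcg, Cck and Nts, so the E17.5 enteroendocrine-like levels below leave these cells out. Shallow irradiated clusters led by Nts (75 cells) and by Stxbp5l (58 cells) were also left unnamed. Adult clusters led by the same genes (185 and 254 cells) stayed enteroendocrine-like, so the 2 enteroendocrine-like classes do not hold fully like sets of cells. Clusters that carried general epithelial markers and met no lineage's rule were kept as general epithelium, whatever genes led them. All 12 of the enteroendocrine markers were detected in the enteroendocrine-like cells of both libraries, at 27841 and 35661 summed counts per 1e+06 UMIs (CPM).

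In enteroendocrine-like cells 8 of the 10 genes were higher after irradiation by at least 1.5 times and 1 was lower. Among all 13580 features with at least 20 UMIs over both libraries, 5.32% were higher and 8.19% lower by the same rule, which compares CPM plus 1. The median log2 ratio of the 10 genes was 0.91, against 0.04 over all features. Both the arrest arm (Cdkn1a, Ccng1, Plk2) and the feedback arm (Mdm2, Phlda3, Zmat3, Trp53inp1, Sesn2) were among the higher genes. Sesn1 was the lower one and Btg2 did not pass in either direction.

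Phlda3, the restraint on Akt, was at 1.95 CPM in adult enteroendocrine-like cells (95% Poisson interval 1.26 to 2.88, 25 UMIs) and 87.7 CPM in irradiated ones (83.6 to 92.0, 1712 UMIs). It stood at 8.13 CPM in the E17.5 enteroendocrine-like cells. The irradiated level was thus 44.9-fold the adult one (interval 30.3 to 69.6), and 1 of the 13580 features had a larger log2 ratio. Ccng1 stood at 17.4 CPM in the adult, 22.1 at E17.5 and 163 after irradiation, 9.33-fold above the adult (8.15 to 10.7), with 8 features above it. For both genes the E17.5 and adult levels lay far below the irradiated one.

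Cdkn1a behaved differently in that its adult level was already high. It stood at 691 CPM in adult enteroendocrine-like cells (676 to 705), 791 at E17.5 (769 to 815) and 1179 after irradiation (1163 to 1194). The irradiated-over-adult fold was 1.71 (1.66 to 1.75), and 375 features had a larger log2 ratio. Mdm2, the ligase for p53, had a similar fold of 1.77 (1.62 to 1.94), from 49.9 CPM in the adult and 46.9 at E17.5 to 88.3. Trp53inp1 went from 114 to 183 CPM, 1.61-fold (1.51 to 1.71), and was at 37.2 CPM at E17.5. These 3 genes passed the 1.5-fold rule and did not pass a 2-fold one.

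Among the remaining members, the kinase gene Plk2 stood at 18.2 CPM in the adult and 65.6 after irradiation, 3.60-fold higher (3.13 to 4.16). The RNA-binding protein gene Zmat3 went from 15.2 to 42.0 CPM, 2.75-fold (2.35 to 3.24). The 2 sestrins parted. Sesn2 was at 18.3 CPM in the adult and 37.9 after irradiation, 2.07-fold higher (1.79 to 2.41), whereas Sesn1 was at 17.8 and 11.4 CPM, 1.56-fold lower (1.29 to 1.88). The Sesn1 difference was not found in deeper cells: over the 751 adult and 1481 irradiated cells with at least 5000 UMIs its log2 ratio was -0.06, against -0.60 in all. Btg2 stood at 1624 CPM in the adult, 1334 after irradiation and 864 at E17.5, a log2 ratio of -0.28 that became 0.06 in the deeper cells. In the same deeper cells, whose median depths of 11455 and 11787 UMIs were close, the log2 ratio was 4.73 for Phlda3, 3.01 for Ccng1, 0.61 for Cdkn1a and 1.00 for Mdm2.

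**Figure D1:**
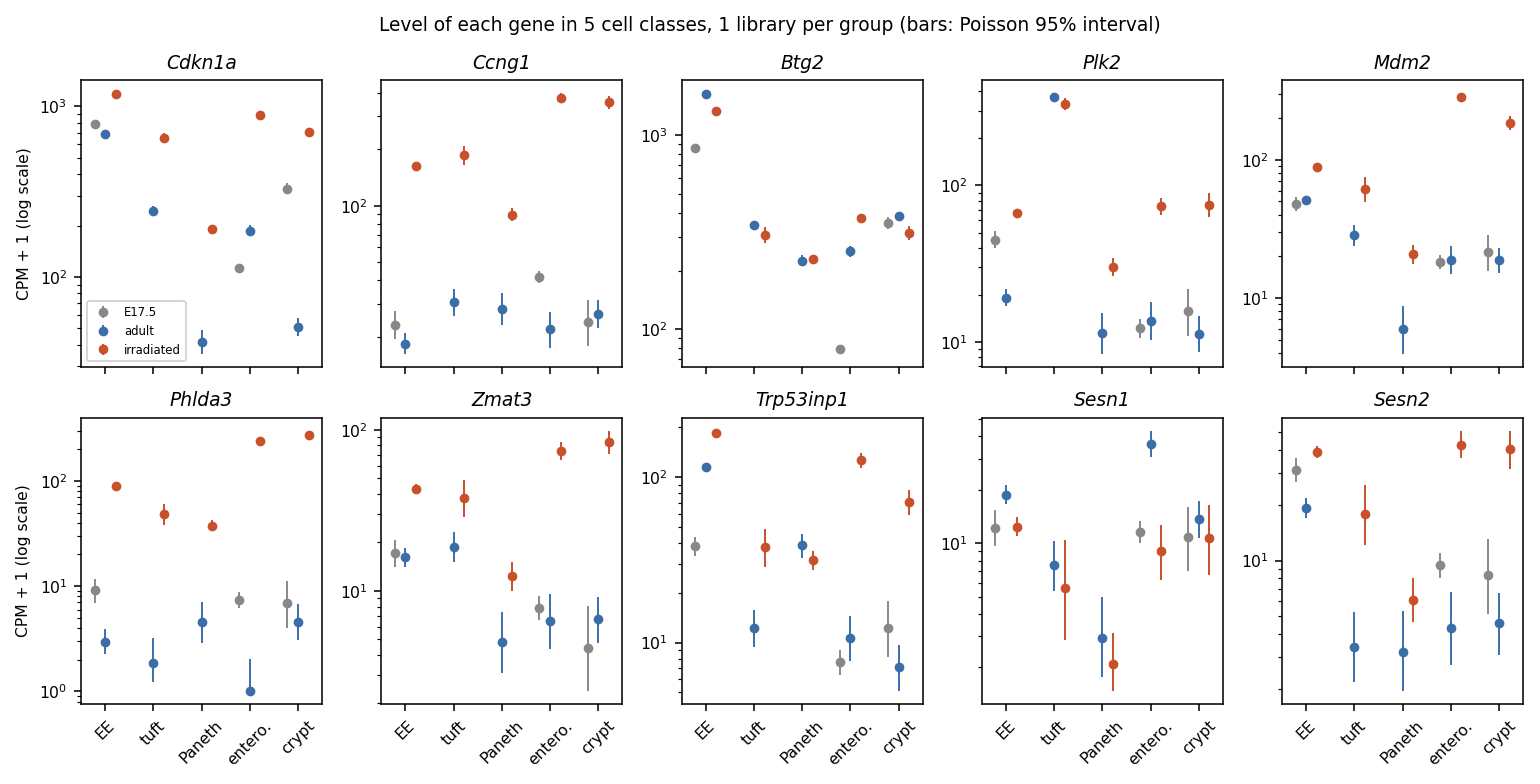
Level of each of the 10 genes (CPM plus 1, log axis) in enteroendocrine-like (EE), tuft-like, Paneth-like, enterocyte-like (entero.) and crypt stem or progenitor-like (crypt) cells of the E17.5 (grey), adult (blue) and irradiated (orange) libraries, 1 point per library with its Poisson 95% interval. Phlda3 lies below 4 CPM in each adult class and between 36.6 and 273 CPM in the irradiated ones, while the adult and irradiated Btg2 levels differ by less than 1.5 times in each class.

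In tuft-like cells 7 of the 10 genes were higher after irradiation and none lower, against 13.5% and 6.74% of 9636 features, and the genes' median log2 ratio was 1.26 against 0.11 over all features. Cdkn1a went from 244 to 653 CPM, 2.67-fold (2.45 to 2.91), and Mdm2 from 27.5 to 60.1, 2.18-fold (1.65 to 2.88). Ccng1 went from 29.7 to 185 CPM, 6.22-fold (5.06 to 7.69). Phlda3 rested on 4 adult UMIs and 73 irradiated ones, a ratio of 55.0 (20.6 to 207). Zmat3 (17.8 and 36.6 CPM), Trp53inp1 (11.3 and 36.6 CPM) and Sesn2 (2.38 and 16.98 CPM) also passed. Plk2 did not: its 369 CPM in adult tuft-like cells, far above the 10.3 to 25.0 CPM of the other adult classes, compared with 329 CPM after irradiation. Btg2 (343 and 306 CPM) and Sesn1 (30 and 7 UMIs) did not pass either. With the clusters that carry markers of more than 1 lineage kept under their first names, Btg2 passed in tuft-like cells with a log2 ratio of 1.11, Trp53inp1 stood at 3.03 against 1.61, and Sesn1 at 0.29 against -0.43. Enteroendocrine markers in tuft-like cells stood at 2.33% of their enteroendocrine-like level in the adult and 5.70% in the irradiated library, and the part of such foreign RNA in these values was not tested.

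In Paneth-like cells 7 of the 9 genes that could be compared were higher and none lower, against 13.7% and 24.9% of 8936 features. The genes' median log2 ratio was 1.39, where the median of all features was -0.14. Cdkn1a went from 40.6 to 189 CPM, 4.66-fold (3.93 to 5.56), Mdm2 from 4.94 to 19.8, 4.01-fold (2.45 to 6.96), and Phlda3 from 3.57 to 36.6, 10.2-fold (5.89 to 19.5). Ccng1 (27.2 and 88.7 CPM), Plk2 (10.4 and 29.0), Zmat3 (3.84 and 11.3) and Sesn2 (2.20 and 5.13) were the others. Trp53inp1, at 37.6 and 30.3 CPM, and Btg2, at 225 and 228 CPM, did not pass, and Sesn1 had 7 and 8 UMIs. Paneth markers made up 572255 CPM of the adult and 596404 CPM of the irradiated class, so the other genes share what is left of the total. Median depth was 14303 UMIs in the adult and 97137 in the irradiated cells. Between these classes summed crypt stem markers stood at 1424 and 123 CPM, enteroendocrine markers at 475 and 1279 and enterocyte markers at 457 and 2926, and their part in the values was not tested.

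**Figure D2:**
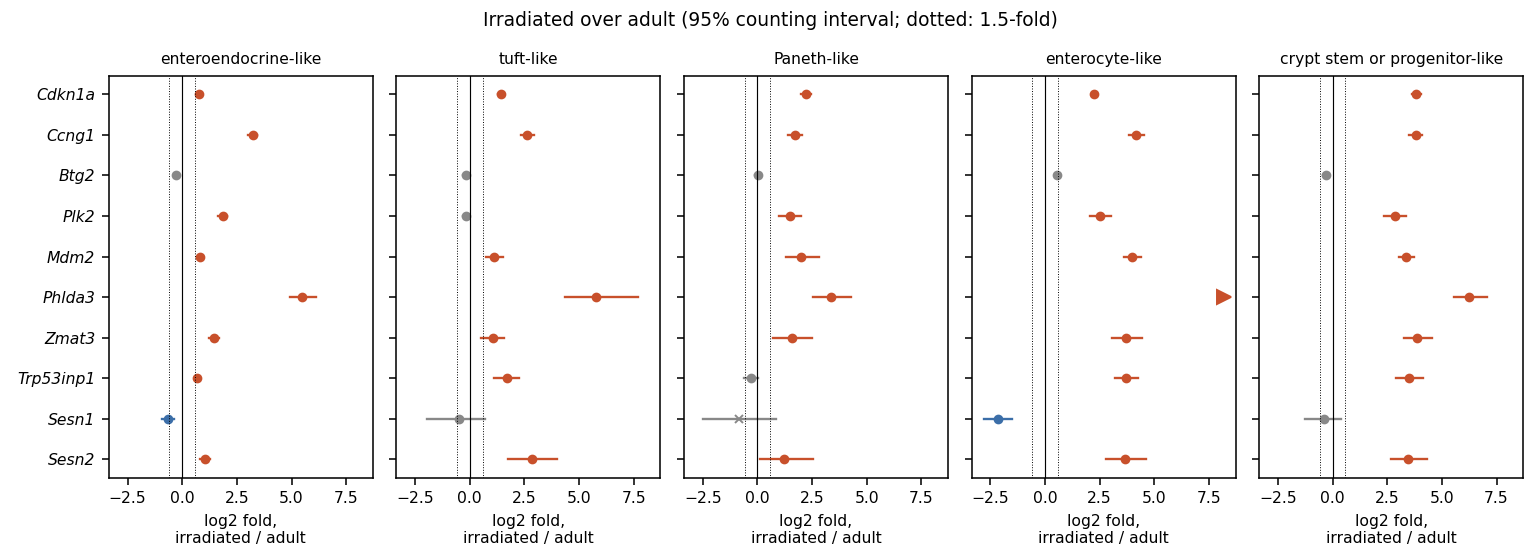
Irradiated over adult fold (log2 axis, points) with its 95% counting interval (lines) for each gene in the 5 classes. Orange is higher and blue lower by at least 1.5 times, grey is neither, and a cross is a gene with too few UMIs. The triangle marks Phlda3 in enterocyte-like cells, which had no adult UMI. Phlda3 lies farthest right in each of the 5 panels, and Sesn1 is blue in enteroendocrine-like and enterocyte-like cells.

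Enterocyte-like and crypt stem or progenitor-like cells were few and had larger folds. In enterocyte-like cells 8 of 10 genes were higher and 1 lower, against 25.1% and 19.2% of 10341 features, with a median log2 ratio of 3.4 against 0.09. Mdm2 went from 18.0 to 284 CPM, 15.8-fold (12.3 to 20.7), and Ccng1 from 20.99 to 375, 17.9-fold (14.2 to 22.8). Phlda3 had no UMI in the 86 adult cells and 774 UMIs in the 69 irradiated cells (239 CPM). With 3 UMIs set for the adult class the fold was 288. With no adult UMI, the exact counting interval of the fold had a lower limit of 234. Cdkn1a stood at 186 and 887 CPM, 4.77-fold (4.39 to 5.198), with Trp53inp1 at 9.67 and 125, Zmat3 at 5.52 and 72.8, Sesn2 at 3.31 and 41.6 and Plk2 at 12.7 and 72.8 CPM. Sesn1 was 4.41-fold lower, at 35.3 and 8.02 CPM. Btg2, at 252 and 373 CPM, stayed under the 1.5-fold rule.

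The 2 enterocyte-like clusters were not alike. The adult one was led by Reg1, Apoa4, Ces1f and Alpi and the irradiated one by Reg3b, Apoa4, Gsta1, Ccnd1 and Areg. Their summed enterocyte markers were 28704 and 14457 CPM, their crypt stem markers 98.6 and 445 CPM, and their G2/M genes 870 and 146 CPM. With every deposited barcode used, Cdkn1a, Mdm2, Ccng1, Zmat3, Sesn2 and Plk2 were higher. Trp53inp1 did not pass, with a log2 ratio of 0.10 (3.56 otherwise), and Phlda3, with 0 and 19 UMIs, could not be compared. The ratio was then 0.77 for Cdkn1a (2.25 otherwise) and 0.95 for Mdm2 (3.91).

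In crypt stem or progenitor-like cells, clusters led in both libraries by the mitotic genes Mki67, Top2a and Cenpf, 8 of 10 genes were higher and none lower. Of 10367 features 19% were higher and 17.5% lower, and the median log2 ratio was 3.31 against 0.02. Cdkn1a had its largest fold here, from 50.05 CPM (43.9 to 56.8) in 96 adult cells to 706 (667 to 746) in 26 irradiated cells, 14.1-fold (12.3 to 16.3). Phlda3 went from 3.56 to 273 CPM, 76.6-fold (47.3 to 133), Ccng1 from 25.5 to 355, 13.9-fold (11.4 to 17), and Mdm2 from 17.8 to 184, 10.4-fold (8.14 to 13.3). Zmat3 (5.65 and 83.1 CPM), Trp53inp1 (6.07 and 69.5), Sesn2 (3.56 and 39.3) and Plk2 (10.3 and 74.0) also passed. Btg2, at 384 and 312 CPM, and Sesn1, at 12.8 and 9.68, did not. The summed G2/M genes were alike in the 2 clusters, at 2426 and 2290 CPM, but the crypt stem markers were at 3446 CPM in the adult and 862 in the irradiated one. Enteroendocrine markers stood in the irradiated cluster at 13.2% of their enteroendocrine-like level and in the adult one at 3.17%, and their part in the values was not tested.

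The order of the classes changed with the library. In the adult, enteroendocrine-like cells had the highest Cdkn1a (691 CPM), Mdm2, Trp53inp1, Sesn2 and Btg2, and tuft-like cells the highest Plk2. Crypt stem or progenitor-like (50.05 CPM) and Paneth-like cells (40.6 CPM) had the lowest Cdkn1a, with intervals that overlapped. In the irradiated library the order for Cdkn1a was enteroendocrine-like (1179 CPM), enterocyte-like (887), crypt stem or progenitor-like (706) and tuft-like cells (653), the last 2 overlapping. Mdm2 was instead highest in enterocyte-like (284 CPM) and crypt stem or progenitor-like cells (184) and was lower in enteroendocrine-like ones (88.3). Ccng1, Phlda3, Zmat3, Sesn2 and Plk2 also had both of these classes above enteroendocrine-like cells, for Sesn2 and Plk2 with overlapping intervals. Paneth-like cells had the lowest irradiated level of 9 genes. Paneth markers took up 572255 CPM of that class in the adult and 596404 CPM in the irradiated library. This lowers the CPM of every other gene there, so the place of Paneth-like cells in these orders depends on it.

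Irradiated cells of the general epithelium formed 2 clusters, led by Akr1b8 and Clu (125 cells) and by Clu and Ly6d (73 cells). Together they had 464 CPM of Cdkn1a (401 to 533), 304 of Ccng1 (254 to 362), 174 of Phlda3 (136 to 218) and 52.3 of Mdm2 (32.8 to 79.2). The adult cluster kept under general epithelium, 114 cells led by the crypt stem marker Olfm4, had 63.9 CPM of Cdkn1a, 22.2 of Ccng1 and 19.4 of Mdm2, and no UMI of Phlda3 among 360048. Its crypt stem markers summed to 3105 CPM, against 3446 in the adult crypt stem or progenitor-like cells, and its Paneth markers to 42639 CPM. As the leading genes differ, these values are given side by side only.

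Within the enteroendocrine-like class the genes varied between clusters, which differ in hormones and also in depth. Cdkn1a ranged from 360 to 943 CPM over 9 adult clusters and from 588 to 1743 over 10 irradiated ones, and 6 irradiated clusters lay above the adult maximum. The lowest adult values (360, 366 and 497 CPM) were in clusters with median depths of 2112, 3106.5 and 2300 UMIs. The other adult clusters had medians of 7876 to 16387 UMIs, and the part of depth was not tested. For Phlda3 (0 to 14.6 against 48.3 to 109 CPM), Ccng1 (9.85 to 33.3 against 87.3 to 243) and Zmat3 (8.75 to 20.5 against 24.7 to 68.8) the ranges did not overlap. Btg2 and Sesn1 had no irradiated cluster above the adult maximum. The irradiated ranges leave out the unnamed clusters led by Nts and by Stxbp5l. The adult clusters led by the same genes, at 360 and 366 CPM of Cdkn1a, are in the adult ranges. Clusters of 1 library share their source and are not replicates.

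Clusters with like leading hormones were set side by side, a choice made after their values were seen. In those led by Sst (129 adult and 159 irradiated cells), Cdkn1a stood at 943 and 1596 CPM and Phlda3 at 14.6 and 69.5. In those led by Gcg and Ghrl (163 and 107 cells) Cdkn1a was at 718 and 1331 CPM and Phlda3 at 0.615 and 87.8. In those with Gip and Fabp5 (162 and 136 cells) Cdkn1a was at 898 and 1653 CPM and Phlda3 at 0.489 and 73.7. Cdkn1a was not higher in every pairing. Another irradiated cluster with Gip and Fabp5 among its leading genes had 588 CPM of Cdkn1a and 53.2 of Phlda3 (304 cells, median depth 2631 UMIs). Its Cdkn1a lay below the adult 898 CPM, which came from a cluster of median depth 13554.5 UMIs. It lay above that of an adult cluster of like depth that shared Gip, Pclo and Sphkap (899 cells, median 2300 UMIs). That adult cluster had 497 CPM of Cdkn1a and no Phlda3 UMI. The adult cluster led by Cck (104 cells) had 689 CPM of Cdkn1a and no Phlda3 UMI. An irradiated cluster with Sct, Ffar1 and Cck (156 cells) had 606 and 48.3 CPM. Other irradiated clusters also had Cck among their leading genes, and their values are not given here. Among them was a cluster of 210 cells that shared Cyp2j5, Onecut3 and Rbp4 with the adult one. Plk2 was uneven among the irradiated clusters: 3 of 10, at 112 to 146 CPM, lay above the adult maximum of 61.4, and the lowest was at 16.4.

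**Figure D3:**
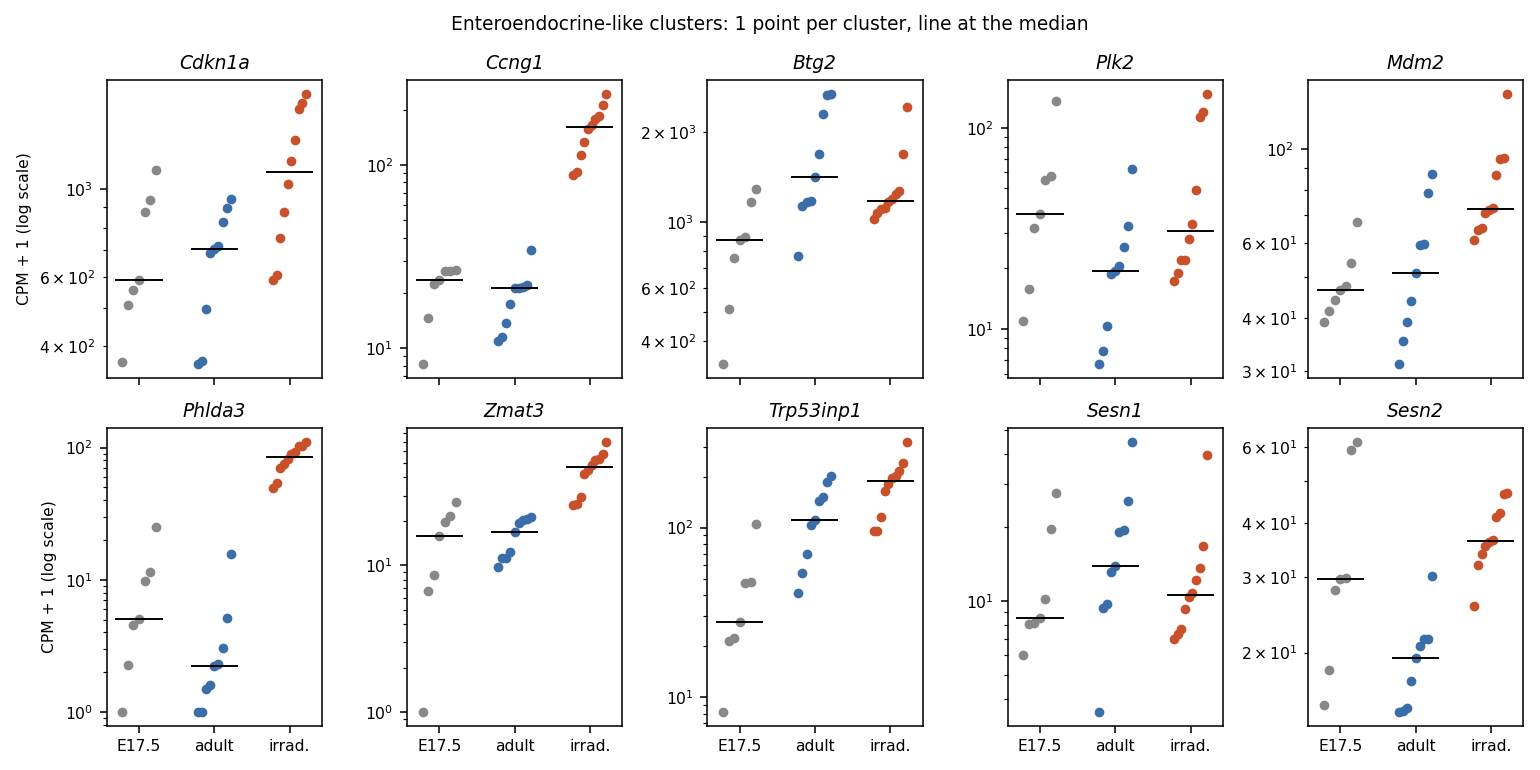
Level of each gene (CPM plus 1, log axis) in each enteroendocrine-like cluster of the E17.5, adult and irradiated libraries, 1 point per cluster and a line at the median. The irradiated points of Phlda3, Ccng1 and Zmat3 lie above every adult point, and those of Btg2 and Sesn1 do not. Unnamed clusters are not shown.

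Shares of cells were compared after thinning each cell at random to 2000 UMIs, which left out 484 adult and 103 irradiated enteroendocrine-like cells and 73 and 40 tuft-like ones. A Phlda3 UMI was found in 0.346% of adult enteroendocrine-like cells (exact Clopper-Pearson 95% interval 0.127 to 0.751) and 15.2% of irradiated ones (13.5 to 16.9). Without thinning the shares were 0.676% and 47.4%. For Ccng1 the thinned shares were 2.94% and 26.3%, and the unthinned ones 8.56% and 67.6%. Cdkn1a was found in 60.9% and 78.0% of thinned cells (68.7% and 92.4% unthinned). In tuft-like cells Phlda3 was found in 0 of 901 adult cells (upper bound 0.409%) and in 10.2% of 235 irradiated ones (6.65 to 14.8). Their unthinned shares were 0.411% and 22.5%. No class is known to lack these genes, so the share that free RNA gives is not known.

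Cells with no Cdkn1a UMI at this depth were 39.1% of adult and 22.0% of irradiated enteroendocrine-like cells, and the median cell had 1 and 2 UMIs. At the upper end the adult maximum was 10 UMIs and the irradiated one 24. Combining Mdm2, Ccng1, Phlda3 and Zmat3, at least 2 of the 4 were found in 0.634% of adult enteroendocrine-like cells (0.317 to 1.13) and 13.3% of irradiated ones (11.7 to 15.0). For tuft-like cells it was 0.777% (0.313 to 1.59) and 8.09% (4.94 to 12.3). None of 78 adult enterocyte-like cells had 2 of them (upper bound 4.62%), against 32.3% of 65 irradiated ones (21.2 to 45.1). For crypt stem or progenitor-like cells the shares were 0 of 91 (upper bound 3.97%) and 57.7% of 26 (36.9 to 76.6). No Paneth-like cell of either library had 2, at 97 and 95 cells. In that class Paneth markers took up 572255 and 596404 CPM before thinning, which leaves fewer UMIs for other genes.

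**Figure D4:**
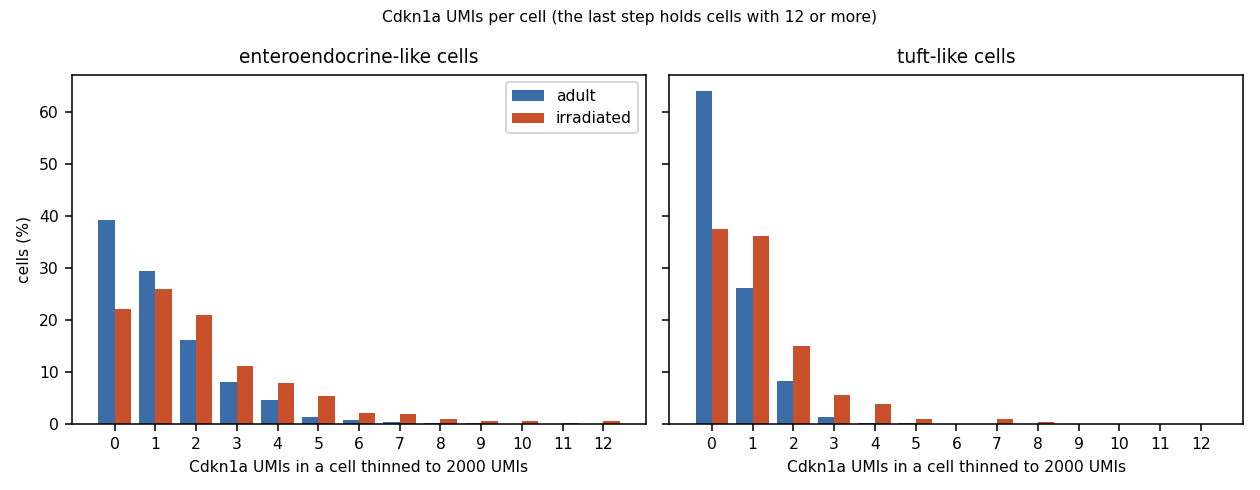
Share of cells (%) by the number of Cdkn1a UMIs in a cell thinned to 2000 UMIs, for enteroendocrine-like and tuft-like cells of the adult (blue) and irradiated (orange) libraries. Cells with 0 UMIs fall from 39.1% to 22.0% of enteroendocrine-like and from 63.9% to 37.4% of tuft-like cells between the adult and the irradiated library.

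**Figure D5:**
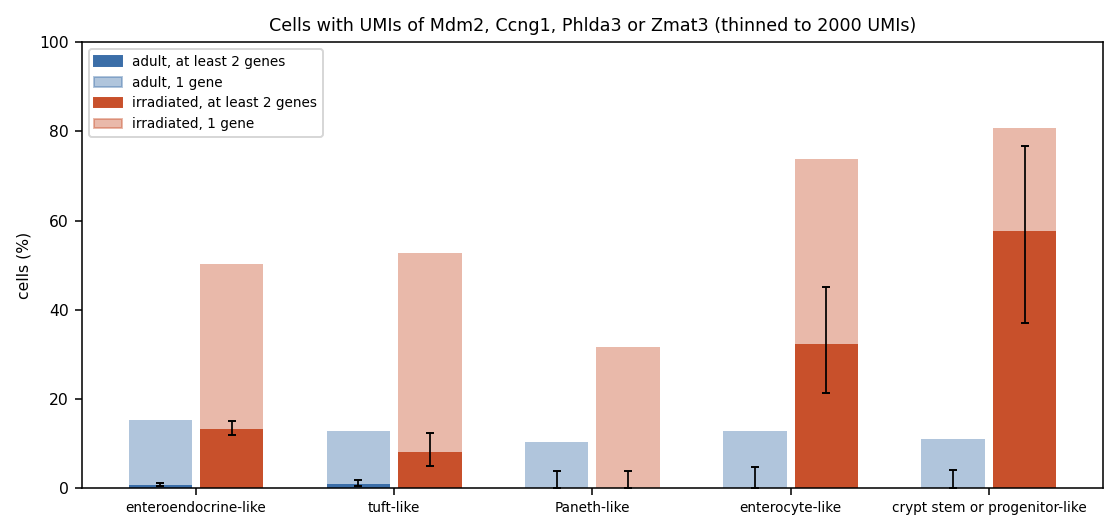
Share of thinned cells (%) with UMIs of 1 (pale) or at least 2 (solid) of Mdm2, Ccng1, Phlda3 and Zmat3 in 5 classes, adult in blue and irradiated in orange; error bars are exact 95% intervals of the solid part. The solid part reaches 57.7% in irradiated crypt stem or progenitor-like cells and 13.3% in irradiated enteroendocrine-like cells.

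Cells with a UMI of 1 of the genes were compared with cells without it, by whether the intervals of their shares for another gene overlapped. Groups with few cells have wide intervals, so an overlap does not show that the shares were alike. Among 90 ordered pairs in irradiated enteroendocrine-like cells, the intervals failed to overlap for 4, all in the higher direction. Ccng1 was found in 28.1% of cells with a Cdkn1a UMI and 20% of cells without, and Plk2 in 12.4% of cells with Btg2 and 4.80% without. The other 2 were the reverse of these pairs. No pair of 81 parted in adult enteroendocrine-like cells, and 1 of 54 did in adult tuft-like cells (Cdkn1a, in 53.7% of cells with Mdm2 and 34.9% without). Depth was equal in these cells, but the class mixes clusters with unlike levels.

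Cycling cells, those with at least 3 UMIs over 15 G2/M genes, were examined outside the enteroendocrine-like and tuft-like classes. In the irradiated library 108 cycling cells had 749 CPM of Cdkn1a, 162 of Mdm2, 298 of Ccng1 and 202 of Phlda3. The irradiated cells examined include the 513 unnamed ones, whose enteroendocrine markers stood at 27356 CPM, while the adult library has no unnamed cells. The 797 other cells had 474, 78.3, 151 and 72.7 CPM, giving folds of 1.58 (1.52 to 1.65), 2.07 (1.88 to 2.28), 1.98 (1.85 to 2.12) and 2.78 (2.54 to 3.05). Over the named classes alone, a split added after seeing the data, 97 cycling cells had 745 CPM of Cdkn1a and 295 other cells 292, a fold of 2.55 (2.42 to 2.69), and the fold was 2.83 for Phlda3 (2.56 to 3.13). In the adult library Cdkn1a stood at 74.4 CPM in 197 cycling and 118 in 206 other cells, a fold of 0.629 (0.556 to 0.712). Median depth differed widely, at 42481.5 and 2780 UMIs in the irradiated library and 40998 and 2893.5 in the adult one, and its part and that of the cell classes in these values was not tested. Splitting irradiated enteroendocrine-like cells by a UMI of the reporter (279 with, 1572 without) gave folds of 1.05 for Cdkn1a (1.01 to 1.08), 0.930 for Mdm2 (0.821 to 1.05), 0.977 for Ccng1 (0.893 to 1.07) and 1.10 for Phlda3 (0.978 to 1.24).

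In the embryonic libraries the same genes showed other patterns. E12.5 cells, nearly all kept under general epithelium (3858 of 4050 cells), had 150 CPM of Cdkn1a (147 to 152), 41.3 of Mdm2, 14.1 of Ccng1, 32.0 of Phlda3 and 105 of Btg2. Their Trp53 level was 163 CPM (160 to 166). Enterocyte genes such as Apob, Apoa1 and Fabp1 led 3 of these clusters (339, 330 and 271 cells). At E17.5 Cdkn1a was at 791 CPM in enteroendocrine-like cells, 329 in crypt stem or progenitor-like cells, 111 in enterocyte-like cells and 96.5 in general epithelium, of which 516 and 347 of 1009 cells were in clusters led by Olfm4. Btg2 stood at 864, 351, 77.9 and 174 CPM in the same classes. Phlda3 at E17.5 was highest outside the epithelium, at 119 CPM in smooth muscle-like (96.4 to 146) and 105 in mesenchymal-like cells (84.0 to 129), and between 5.87 and 11.1 CPM in the intestinal epithelial classes. Pancreatic acinar-like cells had 14.5 CPM and pancreatic islet-like cells 2.69. Ccng1 and Plk2 were highest in pancreatic acinar-like cells, at 74.3 and 136 CPM. Over the whole enteroendocrine-like class, the E17.5 levels of Phlda3, Ccng1 and Zmat3 lay below the irradiated ones. By cluster the same held for Phlda3 and Ccng1. For Zmat3 the highest E17.5 cluster, at 26.3 CPM, lay above the lowest irradiated one, at 24.7. Other members were closer: in E17.5 enteroendocrine-like cells Sesn2 stood at 30.1 CPM, Plk2 at 44.1 and Sesn1 at 11.2. The irradiated levels were 37.9, 65.6 and 11.4 CPM. By cluster the E17.5 maximum of Sesn2, 60.7 CPM, lay above the irradiated maximum of 46.0, and that of Plk2 was 134 against 146.

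Trp53 itself, the gene for p53, was at 26.0 CPM in adult and 29.4 in irradiated enteroendocrine-like cells, a fold of 1.13 (0.986 to 1.30). In tuft-like cells it had 27 and 15 UMIs, 1.67-fold with an interval of 0.827 to 3.26. It was 3.14-fold higher in irradiated enterocyte-like cells (2.52 to 3.95), at 29.8 and 93.7 CPM, and at 97.0 and 129 CPM in crypt stem or progenitor-like cells (1.33-fold, 1.13 to 1.57). In Paneth-like cells it was at 20.6 and 11.2 CPM, a fold of 0.544 (0.393 to 0.753). Against 5.32% and 8.19% of all features, none of 9 genes of p53 and its direct regulators was higher in irradiated enteroendocrine-like cells and 1 was lower. Their median log2 ratio was -0.09. The lower one was Atr, the replication stress kinase (12.6 and 6.30 CPM, 161 and 123 UMIs). Mdm4, the partner of Mdm2, was at 62.1 and 65.5 CPM, the deubiquitinase Usp7 at 70.6 and 73.2, and the acetyltransferase Kat5 at 17.5 and 18.1. The kinases Hipk2 (62.7 and 58.8 CPM), Atm (21.6 and 14.6), Chek2 (32 and 38 UMIs) and Chek1 (13 and 8 UMIs) did not pass. Mdm4 passed in tuft-like (45.5 and 125 CPM), enterocyte-like (27.3 and 74.6) and crypt stem or progenitor-like cells (39.2 and 75.7). Over the list, 2 of 8 genes were higher and none lower in tuft-like cells, against 13.5% and 6.74% of all features. In Paneth-like cells 1 and 5 of 8 were (13.7% and 24.9% of all features), and in enterocyte-like cells 2 and 3 of 8 (25.1% and 19.2%). In crypt stem or progenitor-like cells 1 and 3 of 9 were (19% and 17.5%), and the median log2 ratio of the list was -0.58.

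Against 5.32% and 8.19% of all features, 16 of 33 other p53 targets compared in enteroendocrine-like cells were higher and 1 lower, with a median log2 ratio of 0.55. Among those with at least 100 UMIs the extremes were the receptor gene Eda2r (1 and 235 UMIs) and Psrc1 (5 and 132 UMIs) at the top, and Ddb2, a damage-recognition gene (6.49 and 4.10 CPM), and Sfn (18.1 and 14.4 CPM) at the bottom. Named after their values were seen, the lower one was Ckap2 (31 and 20 UMIs), and Bax, a promoter of apoptosis, stood at 125 and 331 CPM, the secreted factor gene Gdf15 at 20.6 and 82.6 and the nuclease gene Aen at 13.4 and 51.7. In enterocyte-like cells 27 of 32 were higher, in crypt stem or progenitor-like cells 24 of 31, in tuft-like cells 15 of 24 and in Paneth-like cells 14 of 25. The shares of all features higher in these classes were 25.1%, 19%, 13.5% and 13.7%. Immediate early genes, which dissociation can induce, gave none of 17 in either direction in enteroendocrine-like cells, with a median of -0.07. Their extremes were Ier3 (14.4 and 19.9 CPM), Btg1 (348 and 430), Klf2 (347 and 259) and Klf6 (502 and 375). In tuft-like cells 8 of 16 immediate early genes were higher, against 13.5% of all features. Of the integrated stress response, 2 of 10 genes were higher and 1 lower in enteroendocrine-like cells; Psat1 (2.74 and 11.7 CPM) and Nupr1 (3.20 and 11.6) were the top, and Vldlr (42.4 and 35.2) and Ppp1r15a (293 and 236) the bottom of those with 100 UMIs. The lower one, named after its values were seen, was Phgdh, a serine synthesis enzyme (25 and 15 UMIs). In enterocyte-like cells 7 of 10 of these genes were higher (median log2 ratio 1.67), in crypt stem or progenitor-like cells 5 of 8 with 1 lower (0.76), in Paneth-like cells 3 of 9 (0.34) and in tuft-like cells none of 5 in either direction.

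All 14 G2/M genes compared were lower in irradiated enteroendocrine-like cells, against 8.19% of all features, with a median log2 ratio of -1.39 from low levels. Mki67 went from 5.86 to 1.74 CPM, Ube2c from 12.7 to 3.43, Top2a from 8.36 to 1.59 and Birc5 from 8.67 to 0.820. All 13 compared in Paneth-like and all 15 in enterocyte-like cells were lower, and 4 of 5 in tuft-like cells. In crypt stem or progenitor-like cells 3 of 15 were lower and 1 was higher, where 19% of all features were higher. The shares of all features lower in these 4 classes, in the order given, were 24.9%, 19.2%, 6.74% and 17.5%. Alpha-defensin genes, whose RNA comes from Paneth cells, stood in enteroendocrine-like cells at 3.83 and 9.48 CPM for Defa21, 3.28 and 7.38 for Defa22, 1145 and 586 for Defa30, 600 and 80.9 for Defa17 and, named after its values were seen, 2282 and 1258 for Defa24. These near-identical genes may share reads, and the part of such free RNA in the values above was not tested.

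Likeness to Cdkn1a and Mdm2 was described over 21 combinations of library and class with at least 50 cells, as Pearson's r of log2 of CPM plus 1, among 10475 features with at least 1000 UMIs. These units share libraries and depth, so r is a description only. Nearest to Cdkn1a were Myrf (0.88), Gclc (0.88), Nbeal2 (0.86), Nipal2 (0.86) and Jag2 (0.85), and the nearest member was Sesn2 (0.75). Nearest to Mdm2 were Trim11 (0.87), Fbxw9 (0.85), Ei24 (0.85, itself among the other p53 targets listed), Pam16 (0.82) and the member Sesn2 (0.81), with Zmat3 in rank 9 (0.79). Cdkn1a and Mdm2 correlated with each other at 0.63, and Cdkn1a with Phlda3 at 0.10.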

How the data were processed

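RNA was measured in 4 single-cell libraries, 1 per group, so no replicate check and no p-value exist. The authors deposited raw UMI counts per gene and barcode, made with Cell Ranger 3.1.0 on the mm10 build per the submitters' processing notes; the annotation is not given in the sources used here. The rule by which the deposited barcodes were chosen is not given either. Of 31053 Ensembl IDs, 31011 (99.9%) matched GENCODE M21 (GRCm38), used for the positions of the 10 genes, which all matched.

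The members and gene lists were chosen with earlier results of these data known. A barcode counted as a cell from 500 genes upward if mitochondrial UMIs made up no more than 20%. Scrublet (scanpy 1.11.5) scored doublets, and the highest scores were removed at 0.8% per 1000 barcodes, because its own threshold marked 0 to 26 cells per library. Each library was clustered with Leiden (leidenalg 0.10.2, igraph 0.11.9) at resolution 1 on 2000 variable genes, 30 components and 20 neighbours, leaving out the members and 2 lists of p53 genes. A cluster was named from 17 marker lists where its marker score reached 0.5 and at least 3 markers reached 50 CPM and 10% of its cells. Clusters that met 2 lineages, had leading genes of another class, or had a median depth below the library's divided by 3 with none of their own markers among their top 10 genes were left unnamed. The leading-gene rule was not applied to general epithelium, the name of clusters that met its markers and no lineage's rule. These naming rules were set after the clusters had been seen, and left unnamed no adult cluster.

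UMIs were summed per class and given as CPM with exact Poisson 95% intervals. Folds carry exact conditional binomial intervals, and shares exact Clopper-Pearson intervals. A feature was called at a ratio of 1.5 of CPM plus 1, with at least 20 UMIs over both libraries. Where a class had 0 UMIs the fold used 3. The named genes are the members, the regulators of p53, the 5 features most like Cdkn1a and Mdm2, and, from each further list, the 2 highest and 2 lowest ratios in enteroendocrine-like cells with at least 100 UMIs; any other gene was named after its values were seen. Alternatives covered the cell filter, doublets, resolution, joint clustering, naming, scaling (edgeR 4.0.16 TMM in R 4.3.3, mean of cells, total without abundant genes), pseudocounts of 0.1 and 10 CPM, thresholds and thinning. The fold calculation was tested on simulated counts. Promoter windows are RefSeq's. Other tools were matplotlib 3.10.9, scikit-learn 1.9.0, pandas 2.3.3, scipy 1.17.1 and numpy 2.4.6, under python 3.11.15.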

Additional observations from a re-analysis of the deposited data

Results flagged for a closer look

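Plk2 and Btg2 had irradiated over adult log2 ratios of opposite sign in different classes, with counting intervals on opposite sides of no change. The differences between classes were not tested. Plk2 was lower in tuft-like cells (-0.16) and higher in enteroendocrine-like (1.79), Paneth-like (1.39), enterocyte-like (2.43) and crypt stem or progenitor-like cells (2.74). Adult tuft-like cells had the highest adult Plk2 level, 369 CPM. Btg2 was higher in enterocyte-like cells (0.56) and lower in enteroendocrine-like (-0.28), tuft-like (-0.17) and crypt stem or progenitor-like cells (-0.30). None of these Btg2 ratios passed the 1.5-fold rule. The enterocyte-like Btg2 ratio ran from -0.45 to 0.63 over the alternatives, being -0.45 with every deposited barcode. The tuft-like one ran from -0.33 to 1.11 and the enteroendocrine-like one from -0.45 to 0.06, so the opposite signs of Btg2 did not hold under each alternative. For Plk2 the tuft-like ratio ran from -0.52 to -0.03.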

How the results depend on the processing

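No called ratio changed sign under the alternatives, and of 620 ratios recomputed 525 moved by less than their counting interval and 95 by more. The count of genes lower in enteroendocrine-like cells, 1 (Sesn1) as reported, was 0 with every barcode, at resolution 0.5, with both libraries clustered together, with first names kept, with a pseudocount of 10 CPM, at a ratio of 2, and in cells with at least 5000 UMIs, an alternative chosen after seeing the data. The count higher there was 5 at a ratio of 2, against 8. With CPM averaged over cells, 1 gene (Sesn1, log2 ratio -1.21) was lower in tuft-like and 2 (Sesn1, -1.065, and Btg2, -0.70) in crypt stem or progenitor-like cells, against 0. The cause was not tested, except that a higher ratio or pseudocount makes calls fewer by construction. TMM factors moved the median of all features by -0.16 in tuft-like and 0.20 in Paneth-like cells, the total without abundant genes by -0.17 and the mean of cells by -0.28 in Paneth-like cells. Some classes were not found under 4 alternatives: Paneth-like and crypt with every barcode, tuft-like and enterocyte-like under the stricter filter, crypt at resolution 0.5, and Paneth-like, enterocyte-like and crypt with joint clustering. No paired analysis was possible because each group has 1 library and the labels give no replicate numbers. With 26 irradiated crypt cells and adult Phlda3 counts of 0 to 25 UMIs per class, depth limits those folds to the wide intervals given.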
